A study of Mus musculus with 5 samples.

Results

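Cells of the basophil and mast cell lineage in mouse bone marrow were looked for as those that carried at least 5 unique molecular identifiers (UMIs, each standing for 1 captured RNA molecule) in all from 4 genes, *Mcpt8*, *Prss34*, *Cpa3* and *Ms4a2*. Barcodes were retained when they held at least 500 UMIs with at most 10% of them mitochondrial, and 98 of the 29679 retained barcodes met the rule (0.330%, exact 95% binomial interval 0.268 to 0.402%). They are called members here, and were chosen by their UMI counts of these 4 genes in the same libraries. All intervals cover counting error only.

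The study sampled the marrow during the growth of a BCR-ABL1 pre-B acute lymphoblastic leukemia, a leukemia of early B cells driven by a fusion kinase. The 5 libraries were made with 10x 3′ v2 chemistry, which counts RNA 3′ ends, and each held the marrow of 1 C57BL/6J mouse aged 8 weeks. All mice, the day 0 control included, received 1000 of the leukemia cells by tail vein without irradiation. The day 0 mouse was euthanized straight after the injection and the others at day 3, 6, 9 or 12, so that every group had the injection and there was no uninjected group. Receiving it does not say how many leukemia cells the marrow held. The marrow was flushed and crushed from the leg bones, digested with collagenase and DNase, depleted of red cells by lysis and frozen before sequencing. With 1 mouse per day, the day and the mouse cannot be told apart, and no test between days was possible. The study set basophils aside because very few cells had been annotated as such.

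Basophils are rare blood granulocytes that develop in the marrow from granulocyte progenitors, while mast cells mature in tissues. Both carry the high-affinity IgE receptor, whose α chain is *Fcer1a*, β chain *Ms4a2* and γ chain *Fcer1g*, and both need the transcription factor GATA2. Basophils release histamine, leukotrienes and interleukin-4, and in the mouse they store the proteases encoded by *Mcpt8* and *Prss34*, whereas connective tissue mast cells store chymases and tryptases (*Cma1*, *Mcpt4*, *Tpsb2*) beside carboxypeptidase A3, the product of *Cpa3*.

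The 4 rule genes lie on different chromosomes of GRCm38 (mm10). By the GENCODE M21 annotation, *Mcpt8* spans chr14:56082166-56085273 on the minus strand, *Prss34* chr17:25298394-25300165 on the plus strand, *Cpa3* chr3:20215620-20242181 on the minus strand and *Ms4a2* chr19:11615523-11623719 on the minus strand. *Fcer1a* lies at chr1:173221284-173227214 on the minus strand and *Gata2* at chr6:88193891-88207032 on the plus strand. The 250 bases before the RefSeq starts are shown because these genes mark the members and were counted together in the same cells. The RefSeq start can differ from the GENCODE gene end given above, as it does for *Fcer1a* and *Mcpt8*. The letters searched were AGATAA and its reverse complement TTATCT, a core that GATA factors are known to bind. The sequences come from RefSeq on GRCm38.p6, run 5′ to 3′ along the gene's own strand, and carry each match in capitals.
*Prss34*, chr17:25298144-25298393, plus strand: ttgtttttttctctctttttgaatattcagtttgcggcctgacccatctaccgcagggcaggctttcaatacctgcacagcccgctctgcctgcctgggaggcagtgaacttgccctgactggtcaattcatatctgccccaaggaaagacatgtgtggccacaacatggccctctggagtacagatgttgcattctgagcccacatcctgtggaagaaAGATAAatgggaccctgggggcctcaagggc
*Cpa3*, chr3:20242182-20242431, minus strand: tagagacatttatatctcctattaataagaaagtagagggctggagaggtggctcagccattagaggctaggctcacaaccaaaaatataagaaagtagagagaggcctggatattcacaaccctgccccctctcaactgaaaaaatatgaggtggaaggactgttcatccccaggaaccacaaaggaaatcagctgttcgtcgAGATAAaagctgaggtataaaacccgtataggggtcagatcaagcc
*Ms4a2*, chr19:11623720-11623969, minus strand: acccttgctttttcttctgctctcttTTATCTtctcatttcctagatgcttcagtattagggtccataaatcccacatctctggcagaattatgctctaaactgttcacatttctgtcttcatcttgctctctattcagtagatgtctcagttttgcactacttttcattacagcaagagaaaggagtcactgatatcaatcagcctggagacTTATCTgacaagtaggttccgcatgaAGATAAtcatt
*Fcer1a*, chr1:173227230-173227479, minus strand: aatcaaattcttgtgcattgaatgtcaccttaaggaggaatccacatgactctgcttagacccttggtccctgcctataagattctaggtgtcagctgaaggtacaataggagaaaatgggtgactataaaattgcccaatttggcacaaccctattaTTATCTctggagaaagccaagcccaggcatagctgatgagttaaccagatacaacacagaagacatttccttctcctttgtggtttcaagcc
The match lay 31 bases before the RefSeq start in *Prss34*, 46 in *Cpa3* and 92 in *Fcer1a*, while *Ms4a2* held 3 matches, 224, 37 and 11 bases before its start. Of all 32851 promoter windows of this length, 3281 (9.99%) held either form. The window of *Mcpt8* held neither, which says only that these letters are absent from it. A match is a stretch of letters and not a measured binding site.

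The libraries were of like depth, with 33425695 to 43554233 UMIs and 4870 to 6944 retained barcodes each. Members had a median of 12329.5 UMIs (range 2880 to 30025) and 2884 genes, against 3595 UMIs and 918 genes over all retained barcodes. No member barcode was shared between libraries, and over all retained barcodes 513 pairs were shared where 476 would be by chance. The doublet caller Scrublet marked no member, but it marked 2.52% of barcodes at day 0 and at most 0.0539% elsewhere, so it gave no usable call in those libraries. Measured directly, 12 members also met a rule for a second lineage (9 for neutrophils, 2 for B-lineage cells and 1 for T cells). These 12 fell at day 3 (1), day 6 (3) and day 9 (8).

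Basophil markers were present in the members, and the proteases that define mature mast cells were at 0. Of 12 basophil markers, 3 were rule genes and had to be present. Of the other 9, only the integrin gene *Itga2* was at 0, and 6 stood more than 2-fold higher in members than in other retained barcodes. The share of all genes past 2-fold in this contrast was not computed, and the rule chose the members, so the count is a description. Of 13 mast cell markers, 7 were at 0 in all 98 members: the chymase and related protease genes *Cma1*, *Mcpt4*, *Mcpt1* and *Mcpt2*, the tryptase genes *Tpsb2* and *Tpsab1*, and the receptor gene *Mrgprb2*. Over 1331497 UMIs, a count of 0 allows a level of up to 0.0225 per 10000 UMIs for each, taking 3 counts as the limit. The mast cell markers that were present are shared with other cells: *Cpa3*, which was in the rule, *Kit*, the stem cell factor receptor of many progenitors (0.608 per 10000), and *Slc18a2*, the vesicular amine transporter (0.729). *Mitf*, a mast cell transcription factor, had 5 UMIs, while *Hpgds*, the prostaglandin D synthase, and *Mrgprb1* had 1 each. The members are therefore described by their rule genes and not as mast cells.

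The rule genes were unevenly spread over the members. *Mcpt8* summed to 3920 UMIs with a median of 5 per cell and was seen in 76 of 98 members. *Prss34* summed to 4944 UMIs with a median of 1 and was seen in 53. *Cpa3* was the broadest, with 1384 UMIs, a median of 10 and 95 members, and *Ms4a2* gave 308 UMIs in 59 members. *Prss34* was hardly ever present without *Mcpt8*, since 51 members held both, 25 *Mcpt8* alone and 2 *Prss34* alone. Likewise, no member held *Ms4a2* without *Cpa3*. All 4 genes were found together in 44 members, and 13 members were chosen through a single gene. The highest rule gene was *Cpa3* in 49 members, *Mcpt8* in 25 and *Prss34* in 24.

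A few cells carried most of the protease RNA. The highest member, from day 3, held 645 UMIs of *Mcpt8*, 1098 of *Prss34*, 101 of *Cpa3* and 17 of *Ms4a2* among its 16186 UMIs, which was 19.7% of the *Mcpt8* and *Prss34* UMIs of all members. The next, from day 9, held 327 and 499 UMIs of the 2 protease genes (9.32%). In cells that should lack these genes, 1.88% of 17655 neutrophils (median 3307 UMIs) had a UMI of *Mcpt8*, 2.18% of *Prss34*, 0.351% of *Cpa3* and 0.261% of *Ms4a2*, and B-lineage cells (3615 cells, median 2035 UMIs) gave 1.83%, 2.27%, 0.415% and 0.0553%. The members held 86.0% of all rule gene UMIs of the retained barcodes.

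**Figure D1:**
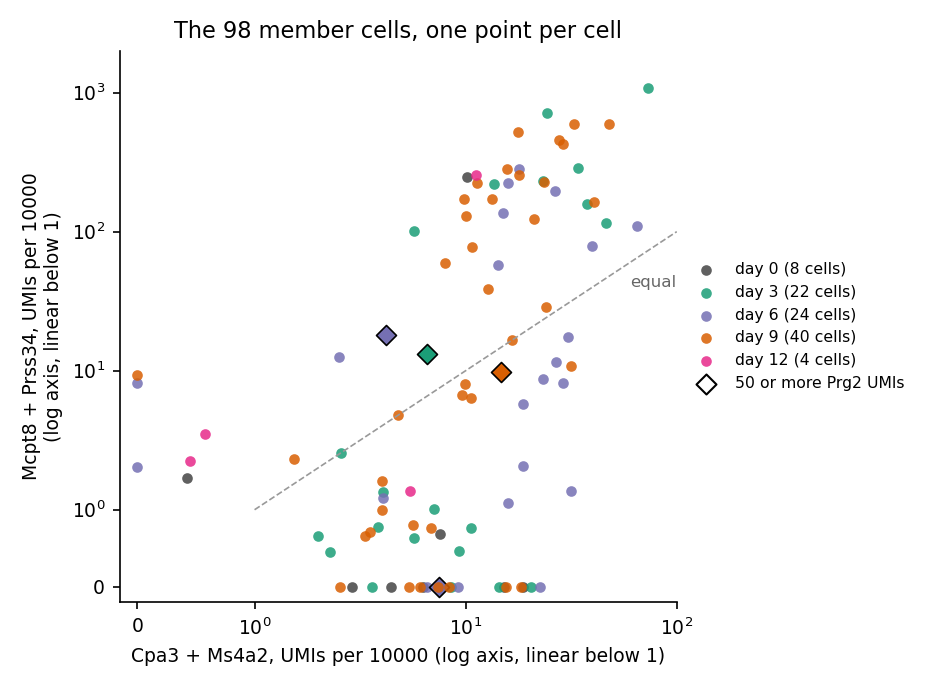
Each point is 1 of the 98 members, placed by its UMIs of Cpa3 and Ms4a2 per 10000 (x axis) and of Mcpt8 and Prss34 per 10000 (y axis), on log axes that are linear below 1, with colours for the day, a dashed line where both are equal and diamonds for the 4 members with 50 or more Prg2 UMIs. The cells run from 20 members on the line of no Mcpt8 or Prss34 UMI to a day 3 cell above 1000 per 10000.

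The edge of the rule ran through a range of weakly labelled cells. Just inside, 12 members had 5 or 6 rule gene UMIs, with a median depth of 17391 UMIs, and 10 of them also met the rule for primary-granule progenitors (at least 20 UMIs of *Mpo*, *Elane*, *Prtn3* and *Ctsg*). Just outside, 36 barcodes had 3 or 4, with a median depth of 15386.5 UMIs, and 25 met that rule.

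Members made up a larger share of the marrow library at days 3, 6 and 9 than at days 0 and 12. They were 8 of 6259 retained barcodes at day 0 (0.128%, 0.0552 to 0.252%), 22 of 4870 at day 3 (0.452%, 0.283 to 0.683%), 24 of 6041 at day 6 (0.397%, 0.255 to 0.591%), 40 of 6944 at day 9 (0.576%, 0.412 to 0.784%) and 4 of 5565 at day 12 (0.0719%, 0.0196 to 0.184%). The counting intervals of days 3, 6 and 9 lay above those of days 0 and 12. Relative to day 0, the share was 3.53 times as large at day 3 (1.52 to 9.18), 3.11 times at day 6 (1.35 to 8.0), 4.51 times at day 9 (2.08 to 11.1) and 0.562 times at day 12 (0.124 to 2.1), and the last interval includes 1. These are differences between 5 mice, and the spread between mice of the same day is not known.

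Days 3, 6 and 9 also lay above days 0 and 12 against a denominator of progenitors. As a share of members, primary-granule progenitors and *Cd34* *Kit* progenitors (at least 3 UMIs of these 2 genes) together, members were 3.00% at day 0 (1.30 to 5.82%), 10.3% at day 3 (6.56 to 15.2%), 9.92% at day 6 (6.46 to 14.4%), 10.2% at day 9 (7.39 to 13.6%) and 1.58% at day 12 (0.432 to 4.0%). Days 3, 6 and 9 lay close together. The RNA outside cells was likewise higher at those 3 days. In barcodes of at most 100 UMIs, which the rule did not use, the 4 genes summed to 0.198 per 10000 UMIs at day 0 (0.158 to 0.245), 1.68 at day 3 (1.55 to 1.82), 1.01 at day 6 (0.854 to 1.19), 1.64 at day 9 (1.46 to 1.84) and 0.120 at day 12 (0.0883 to 0.160). If the deepest member of each library had taken all its RNA from this pool, it would have held 0.468, 5.06, 2.82, 4.65 and 0.268 rule gene UMIs from day 0 to day 12 in order, so that at day 3 the pool alone could reach the limit of 5 in the deepest cell. The part of free RNA in the shares by day was not tested.

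**Figure D2:**
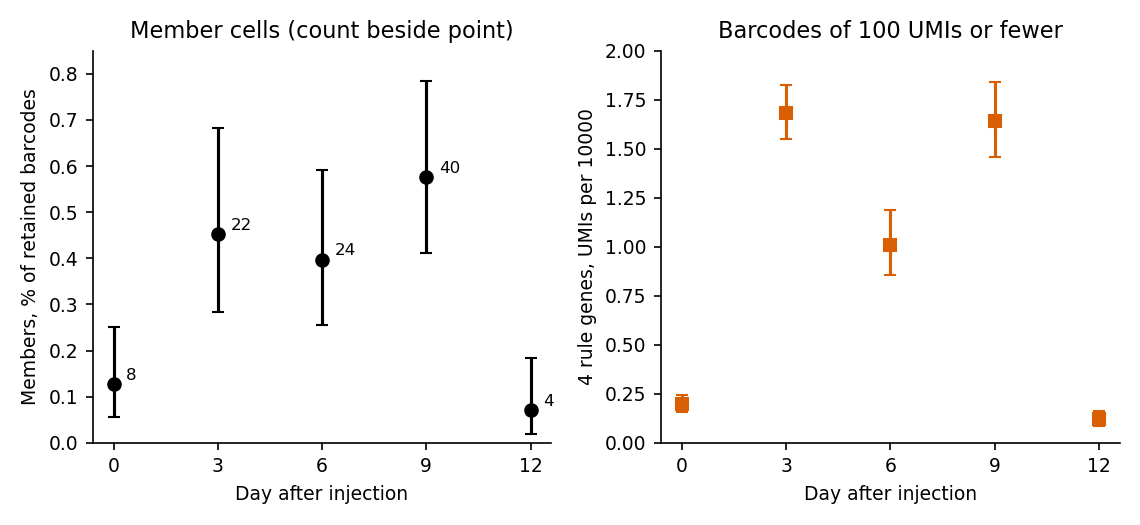
Members as a percent of retained barcodes by day, and the level of the 4 rule genes per 10000 UMIs in barcodes of at most 100 UMIs, each with its 95% counting interval and 1 mouse per day. Days 3, 6 and 9 stand above days 0 and 12 in both measures.

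The limit on mitochondrial UMIs took out *Mcpt8* cells. It removed 2456 barcodes in all, of which 22 had at least 5 rule gene UMIs, in near equal numbers by day (4, 5, 4, 5 and 4), and in 21 of these 22 *Mcpt8* and *Prss34* gave most of the rule gene UMIs. The 22 were shallow, with a median of 1336 UMIs (527 to 3567), of which a median of 21.8% were mitochondrial (10.6 to 80.6%). Their summed level was 80.7 per 10000 UMIs for *Mcpt8*, 59.8 for *Prss34*, 8.37 for *Cpa3* and 3.89 for *Fcer1a*, and 0.598 for the progenitor gene *Cd34*. Counting them, cells in which *Mcpt8* and *Prss34* led numbered 6, 14, 14, 25 and 7 from day 0 to day 12 in order, which is 0.0898%, 0.256%, 0.215%, 0.329% and 0.119% of all barcodes of at least 500 UMIs.

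The genes that set the members apart from other retained barcodes were a mixture of basophil genes and genes of granulocyte progenitors. This contrast was used by the rule, so the values are a description. Beyond the rule genes, *Csrp3*, which encodes a LIM domain protein best known from muscle, stood at 2.72 per 10000 UMIs in members and 0.0044 in the other barcodes. *Gata2* stood at 2.26 against 0.00958 and *Fcer1a* at 1.43 against 0.00177. *Cyp11a1*, the enzyme that starts steroid synthesis from cholesterol, stood at 0.496 against 0.000984. *Slc18a2*, which loads amines such as histamine into granules, stood at 0.729 against 0.00748. *Itga2b*, the integrin CD41 of platelets and early progenitors, stood at 0.721 against 0.00899, and *Ikzf2*, encoding the transcription factor Helios, at 1.68 against 0.120. Progenitor genes were among the 20 leading genes as well: the myeloperoxidase gene *Mpo* stood at 22.8 against 3.01, the cathepsin G gene *Ctsg* at 17.5 against 2.1, the cell cycle kinase gene *Cdk6* at 3.30 against 0.394 and *Cd34* at 1.37 against 0.116. These progenitor genes were not particular to the members, since 17655 of the 29581 other barcodes were classed as neutrophils. Primary-granule progenitors held 22.7 of *Mpo* and 15.7 of *Ctsg*. *Cd34* *Kit* progenitors held 2.86 of *Cdk6* and 3.27 of *Cd34*. Those classes were themselves cut on *Mpo*, *Ctsg* and *Cd34*. The others were *4930519L02Rik*, *Rnase12*, *Gm11697*, *Calr*, *Fut8*, *Adgrg1*, *Rab38*, *Cst7* and *Ptprs*, with ratios in the same direction.

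By day, the rule genes and most basophil genes in the members were highest at day 3, 6 or 9. *Mcpt8* stood at 4.15, 42.7, 19.9, 35.8 and 7.06 per 10000 UMIs from day 0 to day 12 in order, and *Prss34* at 2.46, 60.4, 13.8, 48.1 and 18.0. Both were highest at days 3 and 9, but single cells weighed heavily: 1 cell held 1098 of the 2057 *Prss34* UMIs and 645 of the 1455 *Mcpt8* UMIs of day 3, 1 cell held 106 of 107 *Prss34* UMIs at day 12, and 1 cell held all 29 at day 0. *Cpa3* stood at 5.59, 11.7, 13.8, 9.27 and 2.19, and *Ms4a2* at 0.763, 2.38, 3.16, 2.27 and 0.505, both highest at day 6. *Gata2* stood at 0.763, 2.35, 2.36, 2.70 and 0.673, with days 3, 6 and 9 alike and above the other 2 days. *Fcer1a* stood at 0.0848, 1.53, 0.975, 2.19 and 0, and *Csrp3* at 0.424, 2.08, 4.02, 3.14 and 0.168. *Mpo*, in contrast, was spread more evenly, at 25.3, 22.0, 26.5, 21.2 and 15.1. Days 0 and 12 rest on 8 and 4 members. Because the members were chosen by their rule gene UMIs, the levels of the rule genes by day describe the cells chosen. The mix of members differed by day as well: *Mcpt8* and *Prss34* gave most of the rule gene UMIs in 2 of 8 at day 0 and 20 of 40 at day 9. The parts of this mix and of free RNA in the levels were not tested.

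The members covered a wide range of protease RNA. Sorted by their UMIs of *Mcpt8* and *Prss34*, into ranges chosen after the values were seen, 20 had none, 34 had 1 to 9, 19 had 10 to 99 and 25 had 100 or more. The last range held 0, 8, 4, 12 and 1 members from day 0 to day 12 in order, so that none of the 8 day 0 members reached it. Depth moved with the ranges, with medians of 15460.5, 14738, 10767 and 9649 UMIs, and its part in the levels was not tested. Because the ranges are cut on rule genes of the same cells, the levels below are descriptive.

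Genes of the basophil programme stood higher in the upper ranges. *Gata2* stood at 0.721 per 10000 UMIs (0.452 to 1.09) with no *Mcpt8* or *Prss34*, 1.15 with 1 to 9, 3.03 with 10 to 99 and 5.99 (5.08 to 7.02) with 100 or more. Primary-granule progenitors, of which there were 1125, held 0.0243 of *Gata2* and the 145 *Cd34* *Kit* progenitors 0.206, so that even the members without protease UMIs lay above both. *Fcer1a* stood at 0.131, 0.035, 2.24 (1.63 to 2.99) and 5.48 (4.61 to 6.47), seen in 2 of 20, 2 of 34, 10 of 19 and 20 of 25 members. The receptor's α chain was thus nearly absent below 10 protease UMIs. *Ms4a2*, the β chain and a rule gene, stood at 0.656, 0.402, 5.71 and 5.91, whereas *Fcer1g*, the γ chain that many myeloid cells share, ran only from 4.66 to 14.8 and was found in every member.

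Genes differed in which of the ranges they stood high, and the ranges are no measured order in time. *Csrp3* stood at 0.689, 0.910, 6.51 and 6.23 per 10000 UMIs, and *Lmo4*, a LIM-only transcriptional cofactor, at 2.33, 2.45, 9.89 and 9.18, so that both were already at full level with 10 to 99 protease UMIs. *Cd63*, a tetraspanin of granule membranes, had the same shape at 7.48, 5.84, 16.2 and 18.2. In the range of 10 to 99, 1 cell held 24.6% of the *Lmo4* UMIs and 1 held 16.8% of *Csrp3*. *Cyp11a1* stood at 0.0984, 0.035, 0.298 and 2.17 (1.63 to 2.82) and was seen in 21 of the 25 members of the top range against 4 of 19 in the one before. *Cd200r3*, a surface receptor of basophils and mast cells, stood at 0.0328, 0.0525, 0.149 and 1.5 (1.06 to 2.06), and *Slc18a2* at 0.262, 0.315, 0.547 and 2.36. These last 3 genes stood highest in the top range, where their counting intervals did not overlap those of the range before. Such intervals on summed UMIs leave out the spread between cells and between mice. In the top range 1 cell held 23.7% of the *Cd200r3* UMIs, 1 held 14.5% of *Cyp11a1* and 1 held 13.3% of *Slc18a2*. *Il3ra*, the interleukin-3 receptor chain, stood at 0.164, 0.367, 0.845 and 1.54, and *Alox5*, the 5-lipoxygenase of leukotriene synthesis, at 0.197, 0.262, 0.994 and 1.77. *Hdc*, which makes histamine, stood at 1.21 (0.854 to 1.67), 1.52, 2.38 and 2.76 (2.15 to 3.49), and at 2.31 in neutrophils.

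Along these ranges genes of granulocyte progenitors ran the other way, though not all of them. *Elane*, the neutrophil elastase gene, stood at 22.5 per 10000 UMIs (20.9 to 24.3), 23.1, 2.43 and 1.02 (0.669 to 1.5) along the ranges, against 50.5 in primary-granule progenitors. The drop rested on some cells, since the median over cells was 4.15, 5.54, 0.744 and 0.952 per 10000 UMIs and 1 cell held 35.1% of the *Elane* UMIs of the first range. *Prtn3*, the proteinase 3 gene, stood at 17.9, 19.9, 5.17 and 2.64, and *Mpo* at 25.5, 28.2, 16.1 and 12.9. *Ctsg* did not follow, at 13.4, 18.9, 15 and 21.4. The split of members by leading rule genes, given below, did not show the drop as a 2-fold difference. There none of 6 granulocyte-monocyte progenitor genes passed 2-fold, and *Mpo* stood at 21.7 against 23.5 per 10000 UMIs. In that split 1 cell held 39.7% of the *Elane* UMIs of the members led by *Mcpt8* and *Prss34*. *Cebpa*, a transcription factor of granulocytes, stood higher in the upper ranges, at 0.853, 0.892, 2.38 and 3.03, against 0.450 in primary-granule progenitors. The stem and progenitor gene *Cd34* stood at 1.48, 1.82, 0.745 and 0.709, *Ctla2a* at 2.59, 1.91, 0.596 and 0.315, *Myb* at 2.92, 2.26, 2.09 and 1.58, and *Kit* at 0.689, 0.700, 0.596 and 0.315.

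**Figure D3:**
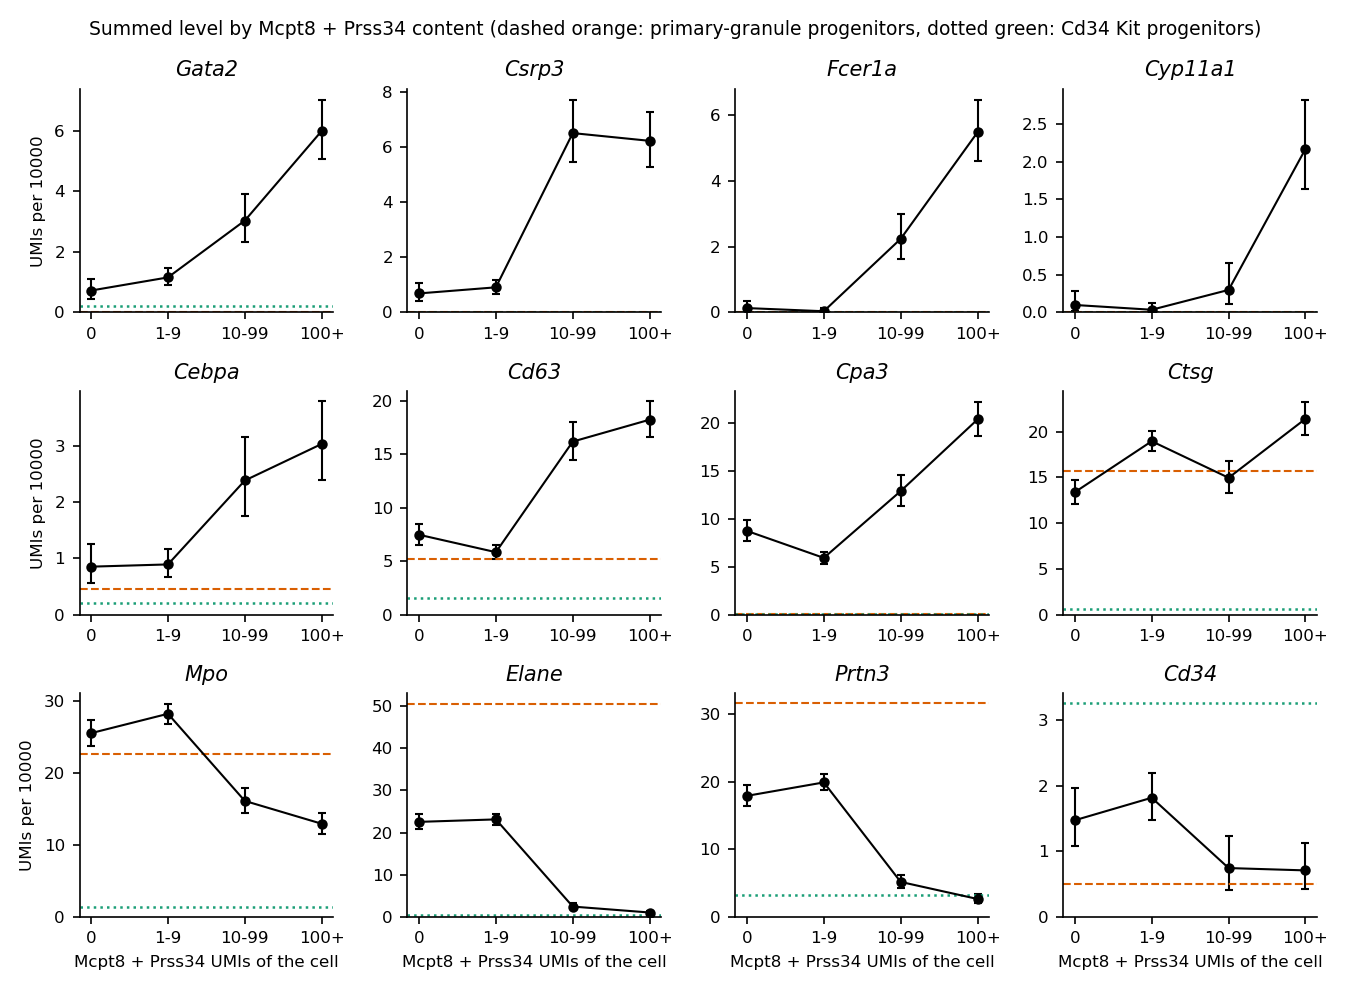
Summed level (UMIs per 10000, y axis) of 12 genes in members sorted by their UMIs of Mcpt8 and Prss34 (x axis), with 95% Poisson intervals, and dashed orange and dotted green lines for the levels in primary-granule and Cd34 Kit progenitors. Gata2 and Fcer1a stand highest in the top range, at 5.99 and 5.48, where Elane stands at 1.02.

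*Il4*, *Il6* and *Csf1* were sparse, with most of their UMIs in the top range, while the chemokine genes *Ccl9* and *Ccl6* were spread over all ranges. *Ccl9* stood at 2.79, 4.15, 3.18 and 3.98 per 10000 UMIs along the ranges (0.462 in neutrophils), and *Ccl6* at 1.11, 1.24, 0.944 and 1.66 (8.29 in neutrophils). The whole list of 15 cytokines and chemokines summed to 5.84, 6.61, 5.96 and 13 per 10000. *Il4* gave 17 UMIs in 15 members, 12 of them in 10 of the 25 cells with 100 or more protease UMIs and none in the first range, against 1 UMI in 17655 neutrophils. *Il6* gave 18 UMIs in 13 members, 13 of them in the top range, and *Csf1*, the macrophage growth factor, stood at 0, 0.035, 0.497 and 0.670 per 10000 UMIs. *Ccl3*, a chemokine, stood at 2.72 in the top range, but 1 cell held 39.1% of it, and neutrophils held 1.05. *Il13*, *Il5* and *Areg* were at 0 in all members.

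For a comparison over all genes, members were split by whether *Mcpt8* and *Prss34* gave more than 50% of the rule gene UMIs. They did in 45 of 98 (45.9%, 35.8 to 56.3%): 2, 9, 11, 20 and 3 from day 0 to day 12 in order. In the other 53, *Cpa3* and *Ms4a2* led, and 8 members lay between 40 and 60%. Cells led by *Mcpt8* and *Prss34* were shallower (median 9697 against 14537 UMIs). Of 2764 genes with at least 50 summed UMIs, 48 were more than 2-fold higher (1.74%) and 30 more than 2-fold lower (1.09%) in the members led by *Mcpt8* and *Prss34*, on a scale of log2(level per 10000 + 0.1), with a median log2 difference of −0.08. The split used rule genes of the same cells and has no test. The count of genes past 2-fold was 39 without the day 3 library, 141 with levels averaged over cells and 153 with the split set at 10 UMIs of *Mcpt8* and *Prss34* instead.

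*Fcer1a* differed most, by 4.09 on the log2 scale (3.64 against 0.119 per 10000 UMIs), followed by *Cyp11a1* (2.94) and *Ets1*, a transcription factor (2.40). Next came *Emilin2* (1.99), the receptor phosphatase gene *Ptprs* (1.91), *Rnase12* (1.80), *Alox5* (1.74), *Atp6v0a1*, a subunit of the vesicular proton pump (1.74), *Slc18a2* (1.61) and *Ccl3* (1.61). Lower were *Ctla2a*, an inhibitor of cathepsins (−2.93, 0.223 against 2.35 per 10000), *Myct1* (−2.38), *Serpina3g* (−2.24), the carbonic anhydrase gene *Car2* (−1.80), *Arl2bp* (−1.45), the phosphatase gene *Dusp2* (−1.35), the transcription factor gene *Mef2c* (−1.32), *Hibadh* (−1.26), *Fam65a* (−1.25) and *Tsg101* (−1.25). In the members led by *Mcpt8* and *Prss34*, *Fcer1a* stood at 0, 5.08, 2.34, 4.98 and 0 per 10000 from day 0 to day 12 in order, and in the others at 0.109, 0, 0.228, 0.146 and 0. The first class held 2 cells at day 0 and 3 at day 12. Its deepest cells there were weakly labelled. The day 0 cell of 23652 UMIs held 4 of *Mcpt8*. The day 12 cells of 22293 and 17200 UMIs held 5 and 6. None of them had a *Prss34* UMI, so these zeros say little about basophils on those days. Within the days 3, 6 and 9 libraries taken singly, 9 of these 10 higher genes kept their direction in all 3 (the exception was *Atp6v0a1*, −0.23 at day 6), and 8 passed 2-fold in all 3. All 10 lower genes kept their direction, and 5 passed 2-fold in all 3. These genes were picked on pooled values that include the same libraries, so the agreement was largely built in and is no replication. The share of all measured genes that keep their direction in all 3 was not computed.

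**Figure D4:**
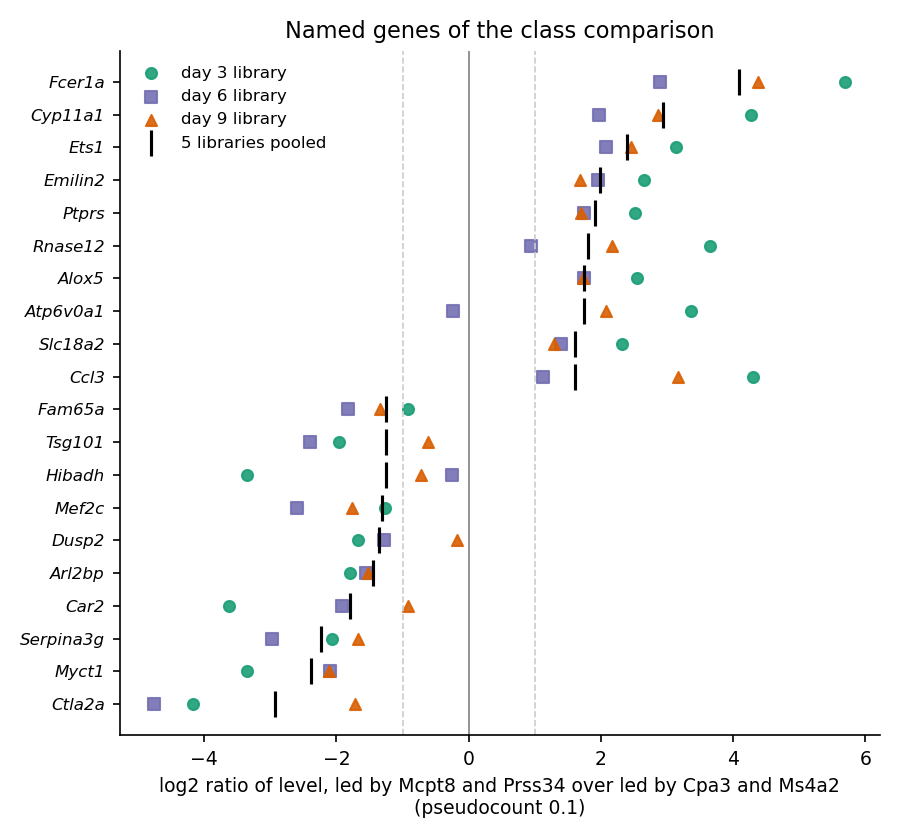
Difference between members led by Mcpt8 and Prss34 (45 cells) and members led by Cpa3 and Ms4a2 (53 cells) in log2(level per 10000 UMIs + 0.1), pooled and within the days 3, 6 and 9 libraries, for the 10 genes furthest on each side, with dashed lines at a 2-fold difference. Fcer1a lies at 4.09 and Ctla2a at −2.93 pooled, and the library values sit on the same side except for Atp6v0a1 at day 6. The genes were picked on the pooled values, which include these libraries.

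The gene lists are given by role and overlap, so they are not separate lines of evidence. The basophil genes *Gata2*, *Fcer1a*, *Il3ra*, *Cyp11a1* and *Ccl3* each count again under another role, and *Ccl3* came from few cells. *Slc18a2* is on both the mediator and the mast cell list. Over all 2764 measured genes, 1.74% were more than 2-fold higher and 1.09% more than 2-fold lower in the cells led by *Mcpt8* and *Prss34*. Of 6 measured basophil genes outside the rule, 5 were more than 2-fold higher and none lower in the cells led by *Mcpt8* and *Prss34* (median log2 1.47), among them *Gata2* (1.30) and *Il3ra* (1.33), with *Hdc* at 0.59. Of 6 measured genes of histamine and lipid mediators, 3 were higher (*Slc18a2*, *Alox5* and *Cyp11a1*, median 1.18). Among 5 measured genes of the IgE receptor and its signalling, 2 were higher (*Fcer1a* and *Fcer1g*, 1.2, median 0.94). Of 7 surface and trafficking receptors, *Cd63* (1.15) and *Cxcr4*, the marrow homing receptor (1.03), were higher, with a list median of 0.51. Of 4 measured cytokines, *Ccl3* and *Ccl4* (1.43) were higher with a median of 1.04, both from few cells, and *Ccl4* went the other way in the day 6 library (0.0837 against 0.640 per 10000). Of 4 cytokine receptors 1 was higher (median 0.75), which was *Il3ra*. Of the 12 measured genes on the transcription factor list, *Gata2* was higher and *Id2*, an inhibitor of helix-loop-helix factors, lower (−1.01), with a median of 0.52. *Ets1* (2.40) and *Mef2c* (−1.32), named above, are not on that list. The *Id2* difference rested on day 0, which gave 42 of the 63 *Id2* UMIs of the members led by *Cpa3* and *Ms4a2*, and at day 3 it went the other way (0.879 against 0.0839 per 10000).

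In the other lists few or no genes passed 2-fold. Over all 2764 measured genes the shares were 1.74% higher and 1.09% lower, so few were to be looked for in lists this short. None of 5 measured stem and early progenitor genes passed 2-fold, but their median was −0.79 (*Cd34* −0.82, *Adgrg1* −0.85, *Cdk6* −0.47). None of 6 granulocyte-monocyte progenitor genes (median 0.14), 7 neutrophil genes (0.22), 21 cell cycle genes (−0.16), 3 interferon-stimulated genes (−0.04) or 2 monocyte genes (0.51) passed it. Of the 2 measured mast cell genes, *Slc18a2* was higher and *Kit* stood at −0.79. Of 10 immediate-early genes, 1 was lower, the mRNA decay factor gene *Zfp36* (−1.09, list median −0.41). The single measured erythroid gene, *Car2*, was lower, the single megakaryocyte gene, *Itga2b*, stood at 0.51 and the single B cell gene at −0.50. No T cell, NK cell or plasmacytoid dendritic cell gene had 50 summed UMIs, and neither *Ctsg* nor *Srgn*, the granule proteoglycan gene, passed 2-fold (median 0.53).

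Some members carried eosinophil genes. These 4 members, singled out after their values were seen and found at day 3 (1), day 6 (2) and day 9 (1), held 552 to 1351 UMIs of *Prg2*, the eosinophil major basic protein gene, which was 99.8% of the *Prg2* UMIs of all members (3557 of 3563). None of the other 94 had more than 1. The same 4 had 4 to 31 UMIs of *Epx*, the eosinophil peroxidase gene, against at most 1 elsewhere, and 8 to 37 rule gene UMIs. Of the 8 eosinophil genes listed, 5 stood more than 2-fold higher in members than in other retained barcodes, while *Ccr3* and *Ear1* were at 0 in all members. *Il5ra* gave 1 UMI in each class of the split, both at day 9. *Siglecf* had 0 UMIs in the day 3 members led by *Mcpt8* and *Prss34*, among them the day 3 cell rich in *Prg2*. Another 4 retained barcodes had 112 to 596 UMIs of *Prg2* with at most 4 rule gene UMIs. The differences of *Prg2* and *Prg3* in the class split, 2 of 3 measured eosinophil genes, came from these cells. Whether they were doublets was not tested.

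The planned pairs of days were each later day against day 0, and day 9 against day 3. Of these, day 9 against day 3 alone had at least 20 members on both sides (40 and 22 cells, 474802 and 340815 UMIs). Day 6, with 24 members, was in no planned pair beside that with day 0 and was not compared by gene. Between them 1763 genes had at least 50 summed UMIs, of which 20 were more than 2-fold higher at day 9 (1.13%) and 10 more than 2-fold lower (0.567%), with a median log2 difference of −0.08. No basophil marker among the 5 measured was on either list (median −0.13). The furthest above were *Igkc*, the immunoglobulin κ constant gene (2.71, 1.90 against 0.205 per 10000 UMIs), *S100a6* (2.02), the NADPH oxidase gene *Cybb* (1.93), the neutrophil gelatinase gene *Mmp9* (1.75) and *Retnlg*, a neutrophil gene (1.66, 25.5 against 8.01 per 10000). In the other retained barcodes *Igkc* differed by 1.55 in the same direction, and in barcodes of at most 100 UMIs by 1.31 (20.2 against 8.11 per 10000, far above its level in members). The part of free RNA in this difference was not tested. Of 7 neutrophil genes 3 were higher at day 9, and cells that also met a second lineage rule were 8 of 40 members at day 9 and 1 of 22 at day 3. Without those cells, *Igkc* stood at 2.68, *Cybb* at 1.59, *S100a6* at 1.09, *Retnlg* at 0.36 and *Mmp9* at 0.19. The furthest below were *Prg3* (−1.82), *Prg2* (−1.76), the mitochondrial import gene *Timm17b* (−1.27), *Zfp422* (−1.18) and *B9d2* (−1.11). Without the 4 members rich in *Prg2*, *Prg2* stood at 0.13 and *Prg3* at 1.83, on few UMIs, and *Prg2* in barcodes of at most 100 UMIs differed by −1.28.

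Neutrophil, B cell and T cell genes took small shares outside the 12 members named above, whereas eosinophil genes reached 9.77% in the members rich in *Prg2*, which are not among those 12. Neutrophil genes took a median of 1.58% of a member's UMIs, from 0.929% to 46.2%, and at most 3.12% without those 12. B cell genes took at most 0.111% and T cell genes at most 0.267%. Of the members, 73 also met the rule for primary-granule progenitors and 38 the rule for *Cd34* *Kit* progenitors, so that the members overlapped the progenitor classes.

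Members held RNA of the cell cycle list, which has 25 genes, and holding such RNA does not show that a cell was dividing. At least 2 UMIs of the cell cycle list were seen in 94 of 98 members (95.9%), and after thinning each cell to 1000 UMIs in 52 of 98 (53.1%, 42.7 to 63.2%). Thinned alike, the share was 79.4% in primary-granule progenitors, 60.7% in *Cd34* *Kit* progenitors, 27.6% in B-lineage cells and 15.6% in neutrophils. Members led by *Mcpt8* and *Prss34* gave 19 of 45 (42.2%, 27.7 to 57.8%) and the others 33 of 53 (62.3%, 47.9 to 75.2%), with intervals that overlap. By day the thinned counts were 6 of 8, 12 of 22, 12 of 24, 18 of 40 and 4 of 4.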

How the data were processed

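Single-cell suspensions of marrow from 5 mice, 1 per day, were sequenced in separate libraries. The authors deposited unfiltered matrices of UMI counts per gene and barcode, with no normalization, made with Cell Ranger on mm10; the gene annotation release is not given in the sources used here. Barcodes with at least 500 UMIs and at most 10% mitochondrial UMIs were retained, and members had at least 5 UMIs of the 4 rule genes. The members and gene lists were chosen with earlier results of these data known. Levels are summed counts per 10000 UMIs with exact Poisson 95% intervals, shares carry exact binomial (Clopper-Pearson) intervals and ratios of shares exact conditional binomial ones. A gene was compared where both groups together held at least 50 UMIs, on log2(level + 0.1), and counted past 2-fold. With 1 mouse per day no p-value was computed.

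The B-lineage rule was at least 5 UMIs of *Cd79a*, *Cd79b* and *Ebf1*, the T cell rule at least 3 UMIs of *Cd3d*, *Cd3e*, *Cd3g* and *Trbc2*, and the neutrophil rule at least 5% of UMIs from *S100a8*, *S100a9*, *Ngp*, *Camp*, *Ltf* and *Retnlg*. Named genes are the rule genes, the genes of the fixed lists, the 20 with the highest ratio of members to other barcodes among those seen in at least 20% of members, the 10 furthest on each side of the split seen in at least 20% of the higher class, and the 5 furthest on each side between days. Thinning drew 1000 UMIs per cell without replacement. Of 28692 gene identifiers, 28416 matched GENCODE M21. Intervals and fold counts were run on simulated binomial and Poisson counts. These had no spread between cells or mice, so the simulation cannot show how either behaves under such spread. Python 3.11.15, numpy 2.4.6, scipy 1.17.1, scanpy 1.11.5 and matplotlib 3.10.9 were used. Alternatives changed the UMI, mitochondrial and rule limits, the pseudocount, the count minimum, the averaging and the libraries.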

Additional observations from a re-analysis of the deposited data

How the results depend on the processing

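The share of members, 0.330%, was 0.451% with at least 3 rule gene UMIs (134 members), 0.249% with at least 10 (74 members) and 0.220% after thinning to 1000 UMIs, and it ran from 0.255% (without day 9) to 0.390% (without day 12) with each library left out. The ratios of share to day 0 moved by less than their intervals under the alternatives run, from 2.75 to 7.21 at day 3, 2.40 to 4.78 at day 6, 3.29 to 7.77 at day 9 and 0.450 to 1.24 at day 12. The share led by *Mcpt8* and *Prss34*, 45.9%, was 62.9% after thinning and 43.1 to 47.8% with a library left out. The 78 genes past 2-fold in the class split became 12 with a pseudocount of 1, 184 with at least 20 and 276 with at least 1 summed UMI, 141 with levels averaged over cells and 153 with the split at 10 UMIs of *Mcpt8* and *Prss34*, the last chosen after seeing the data, and 39 (without day 3) to 91 (without day 12) with a library left out. The 30 genes past 2-fold between days 9 and 3 became 8 with a pseudocount of 1, 141 with at least 20 and 506 with at least 1 summed UMI. Members with at least 2 UMIs of the cell cycle list were 53.1% after thinning against 95.9% before. The pseudocount and count minimum act by construction on low genes, and the cause of the other shifts was not tested. Also chosen after seeing the data, leaving out the 12 members with a second lineage gave 70 and 23 genes in the 2 comparisons, and leaving out the 4 rich in *Prg2* gave 85 and 26. The day 12 ratio to day 0 passed from below to above 1 with at least 3 rule gene UMIs (1.24), and without the members rich in *Prg2* the differences of *Prg2* and *Prg3* between days 9 and 3 turned from −1.76 and −1.82 to 0.13 and 1.83. No paired analysis was possible because each day had a single mouse. Levels below 3 counts could not be told from 0, and the 8 and 4 members of days 0 and 12 gave no gene comparison.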

Other observations

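Several receptor and signalling genes also varied along the members sorted by *Mcpt8* and *Prss34* UMIs (none, 1 to 9, 10 to 99, and 100 or more). *Il1rl1*, the interleukin-33 receptor, had no UMI in the 20 members of the first range and stood at 0.157, 0.447 and 0.394 per 10000 UMIs in the others, seen in 22 members in all. *Csf2rb*, the signalling chain of the interleukin-3 receptor, stood at 0.328, 0.472, 0.696 and 1.18. *Lat*, an adaptor of IgE receptor signalling, stood at 0.164, 0.140, 0.447 and 0.749, and *Ptger3*, a prostaglandin E2 receptor, gave 13 UMIs in 13 members, 7 of them in the last range. The transcription factor genes *Runx1* (0.656, 0.980, 1.49 and 2.17) and *Ikzf2* (1.15, 1.12, 2.48 and 2.96) stood higher in the upper ranges, whereas *Ms4a3*, a gene of granulocyte-monocyte progenitors, held near one level (6.10, 4.93, 4.37 and 6.66). These values are descriptive, since the ranges use rule genes of the same cells.

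Among retained barcodes that did not meet the neutrophil rule, members were 0.251%, 1.19%, 0.878%, 1.39% and 0.293% from day 0 to day 12 in order.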
